A study of Homo sapiens with 6 samples.

Results

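Long noncoding and antisense RNA genes were taken from the array annotation by their symbols. The set held every gene whose symbol starts with LINC and a digit, contains -AS and a digit, ends in -DT or -IT1, or starts with SNHG, together with MALAT1, NEAT1, GAS5, DANCR and H19, and without MIR31HG and MIR100HG. Of the 18376 genes that had a probe set paired with 1 symbol, 431 met the rule. They comprised 205 intergenic RNA genes named LINC, 181 antisense RNA genes, 33 divergent transcripts (-DT), 9 intronic transcripts (-IT1), the small nucleolar RNA host genes SNHG17 and SNHG29, and MALAT1. RefSeq listed 425 of them as long noncoding RNA genes, and the other 6 had no entry in the RefSeq table used.

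RNA was measured in PC3 cells, a human prostate cancer line that grows without androgen, on gene-level expression arrays. Both groups were PC3 cells given a small RNA from outside: 3 arrays carried cells with ectopic miR-34c and 3 arrays cells with a scramble control. The series' design text speaks of miR-205, whereas its title and the sample labels speak of miR-34c, and the labels were followed. A single cell line was used, and the labels give no dose or time. They do not state whether the 3 samples of a group were grown separately, so the p-values reflect the spread of these 6 arrays alone, which may be technical.

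Long noncoding RNAs are transcribed and often spliced like messenger RNAs but are not known to be translated into long proteins. Antisense genes lie on the strand opposite a protein-coding gene, and divergent transcripts start beside the start of a coding gene and run the other way, so that a pair can share a promoter region. A microRNA such as miR-34c, a member of the miR-34 family that p53 can induce, lowers RNAs by pairing through its seed, and long noncoding RNAs as well as messengers can carry matching sites.

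The deposited values were log2 intensities, each probe set centred on a reference that the sources used here do not describe. A value of 0 therefore means the level of that reference and not an absent RNA, and values can be compared between arrays for a gene but not between genes. The array medians lay between -0.030 and 0.062, the correlation of values was 0.774 to 0.875 between arrays of a group and 0.557 to 0.699 between groups, and no arrays held identical values. The endogenous miR-34 loci did not pass the test (MIR34A log2 change -0.21, limma adjusted p = 0.122; MIR34B -0.13, adjusted p = 0.603) and, being transcribed from the cells' own genome, are no check of the labels. Of 17 measured markers of leukocytes, fibroblasts, endothelium and prostate luminal cells, 2 fell (PDGFRA and PECAM1) and 0 rose. Among all genes 8.01% fell and 7.67% rose. The summed centred values of the 5 fibroblast markers were -0.34 to -0.027 in the miR-34c arrays and 0.37 to 0.77 in the scramble arrays. Those of the 3 endothelial markers were -0.078 to 0.32 and 0.99 to 1.23, those of the 2 prostate luminal markers -0.20 to -0.077 and -0.0047 to 0.082, and those of the 7 leukocyte markers -0.22 to -0.020 and -0.36 to 0.44, which overlap. Median log2 changes were -0.096 for the fibroblast, 0.030 for the endothelial, -0.075 for the luminal and -0.017 for the leukocyte markers. PDGFRA and PECAM1 were the only genes of their lists that passed, so the sums do not show a fall shared by a list. The part of these marker shifts in the noncoding RNA results was not tested, and centred values cannot show whether a marker is expressed at all.

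Of the 431 long noncoding RNA genes, 39 (9.05%) passed the test between miR-34c and scramble (limma, Benjamini-Hochberg adjusted p under 0.05 over all 18376 genes), against 15.7% of all genes. Among them 13 rose (3.02%, against 7.67% of all genes) and 26 fell (6.03%, against 8.01%). The changes were small: ARHGAP5-AS1 alone rose by at least 1.5-fold (2.36% of all genes did), and GRIK1-AS2, SNHG17, LINC00652 and LINC01940 fell by at least that much (1.47% of all genes). The median log2 change was -0.04 for the noncoding genes and -0.03 for all genes (0.0031 and -0.00016 after quantile normalization), and the median size of the change regardless of sign was 0.10 and 0.13. The spread between arrays of a group had a median residual SD of 0.14 log2 units for the noncoding genes and 0.11 for all genes. At an unadjusted p under 0.05 there were 82 noncoding genes (19%), against 29.2% of all genes. The arrays of the groups did not overlap for 88 (20.4%), against 34.2%, and 49 of these did not pass. The difference in these shares was not tested.

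The intergenic LINC genes held 3 rises (1.46% of them, against 7.67% of all genes) and 16 falls (7.80%, against 8.01%). Their median log2 change was -0.06, and 137 of the 205 (66.8%) had a change below 0, against 57.7% of all genes. The antisense genes held 8 rises and 8 falls (4.42% each) around a median of -0.02; with each array centred on its median the split was 12 and 7, and after quantile normalization 11 and 6. Of the 33 divergent transcripts, 2 rose (6.06%) and 1 fell (3.03%), around a median of 0.04. None of the 9 intronic transcripts passed the test in limma, 1 of them had an unadjusted p under 0.05, and their log2 changes ran from -0.34 to 0.25.

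**Figure D1:**
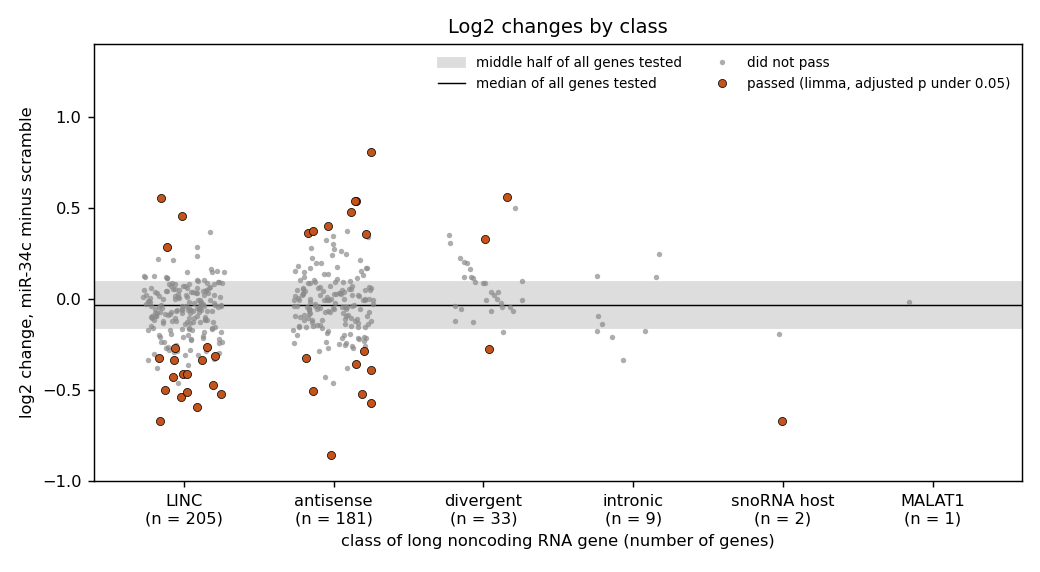
Log2 change (vertical axis, miR-34c minus scramble, 3 arrays each) of every long noncoding RNA gene, by class; orange points passed the test (limma, adjusted p under 0.05), grey points did not, and the band and line give the interquartile range and the median of all genes tested. The LINC column has 3 orange points above the line and 16 under it, and the antisense column 8 and 8.

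The largest rise was that of ARHGAP5-AS1 (probe set 7978538), which is transcribed away from its coding neighbour ARHGAP5. Its log2 values were 0.29, 0.51 and 0.35 in the miR-34c arrays and -0.49, -0.29 and -0.50 in the scramble arrays. Every miR-34c array lay above every scramble array, with a log2 change of 0.81 (SE 0.093, n = 3 and 3, limma adjusted p = 0.000491), or 1.75-fold. ANKRD13C-DT, the divergent transcript of the ankyrin repeat gene ANKRD13C, had log2 values of 0.11, 0.38 and 0.40 in the miR-34c arrays and -0.20, -0.24 and -0.35 in the scramble arrays. Its groups were also apart, with a log2 change of 0.56 (SE 0.097, n = 3 and 3, limma adjusted p = 0.00454), or 1.47-fold. TFAP2A-AS1 lies beside TFAP2A, which encodes the transcription factor AP-2 alpha, and had log2 values of 0.096, 0.13 and 0.37 in the miR-34c arrays and -0.49, -0.26 and -0.28 in the scramble arrays. All its miR-34c values were above 0 and all its scramble values below 0, with a log2 change of 0.54 (SE 0.10, n = 3 and 3, limma adjusted p = 0.00621), or 1.45-fold.

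The promoters of ARHGAP5-AS1 and ANKRD13C-DT are shown because each starts close to its coding neighbour and runs the other way. Each sequence is the 300 bases from 250 before to 50 after the transcript's start in RefSeq (GRCh38.p14), 5′ to 3′ on the strand of the noncoding gene, with every CG pair in capitals. The ARHGAP5-AS1 window (chr14:32076650-32076949, minus strand) and the ANKRD13C-DT window (chr1:70354561-70354860, plus strand) each hold 28 CG pairs, against a median of 14 over all 35116 promoters of the table, of 21 over the 20068 promoters of all genes tested and of 13 over the 356 promoters found for 310 of the noncoding genes.
ARHGAP5-AS1: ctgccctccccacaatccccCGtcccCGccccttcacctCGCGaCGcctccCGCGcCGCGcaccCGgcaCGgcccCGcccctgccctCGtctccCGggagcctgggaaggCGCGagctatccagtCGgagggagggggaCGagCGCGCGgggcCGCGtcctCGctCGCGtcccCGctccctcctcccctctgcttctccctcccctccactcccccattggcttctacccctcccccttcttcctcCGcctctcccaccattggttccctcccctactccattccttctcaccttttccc
ANKRD13C-DT: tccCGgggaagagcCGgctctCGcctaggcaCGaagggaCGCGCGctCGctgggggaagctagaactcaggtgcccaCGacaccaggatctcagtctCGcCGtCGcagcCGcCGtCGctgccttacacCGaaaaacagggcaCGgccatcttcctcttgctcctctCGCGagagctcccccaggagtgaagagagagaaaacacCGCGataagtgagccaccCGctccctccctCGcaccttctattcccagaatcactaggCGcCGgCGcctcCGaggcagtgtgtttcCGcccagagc

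Among the LINC genes, LINC00467 rose most. Its log2 values were -0.17, -0.39 and -0.43 in the miR-34c arrays and -0.89, -0.92 and -0.85 in the scramble arrays. The miR-34c arrays lay above the scramble arrays, whose 3 values were close together, with a log2 change of 0.55 (SE 0.096, n = 3 and 3, limma adjusted p = 0.00449), or 1.47-fold. LINC00161 had values of 0.78, 0.69 and 0.55 in the miR-34c arrays and 0.42, 0.20 and 0.032 in the scramble arrays, again with groups apart, and rose 1.37-fold (log2 change 0.46, SE 0.12, adjusted p = 0.0295). LINC00339 rose least of the 13 genes (log2 change 0.28, SE 0.081, adjusted p = 0.0403).

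Of the other antisense genes that rose, DLGAP1-AS1 had log2 values of 0.45, 0.36 and 0.43 in the miR-34c arrays and -0.038, 0.10 and -0.27 in the scramble arrays. Its miR-34c arrays were close together and above all scramble arrays (log2 change 0.48, SE 0.11, adjusted p = 0.0135). RUSC1-AS1 had values of 0.17, 0.099 and 0.17 in the miR-34c arrays and -0.28, -0.13 and -0.26 in the scramble arrays, with all miR-34c values above 0 and all scramble values below it (log2 change 0.37, SE 0.077, adjusted p = 0.0104). LMNTD2-AS1 (log2 change 0.54, SE 0.13, adjusted p = 0.0225), NEXN-AS1 (log2 change 0.40, SE 0.11, adjusted p = 0.0416), MAP3K14-AS1 (log2 change 0.36, SE 0.11, adjusted p = 0.0456) and URB1-AS1 (log2 change 0.36, SE 0.09, adjusted p = 0.0245) rose as well, and so did the divergent transcript C2orf74-DT (log2 change 0.33, SE 0.085, adjusted p = 0.0273).

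Of the 13 genes that rose, 6 passed whichever array was left out and under every other alternative: ARHGAP5-AS1, ANKRD13C-DT, LINC00467, TFAP2A-AS1, DLGAP1-AS1 and RUSC1-AS1. The other 7 had an adjusted p of 0.05 or more, and are called lost, in some of these fits. LMNTD2-AS1 was lost without miR-34c replicate 2 or 3 or scramble replicate 1 (adjusted p from 0.058 to 0.0742). URB1-AS1 did not pass without miR-34c replicate 1 or 3 or scramble replicate 1 or 3 (0.0624 to 0.104). LINC00161 was lost without miR-34c replicate 1 or 2 or scramble replicate 2 or 3 (0.0632 to 0.093), and C2orf74-DT without any 1 of the miR-34c replicates or scramble replicate 3 (0.0616 to 0.0858). MAP3K14-AS1 passed without scramble replicate 2 and was lost without any other array (0.0509 to 0.148). NEXN-AS1 passed without miR-34c replicate 2 and was lost without any other array (0.0527 to 0.16), and LINC00339 passed without miR-34c replicate 1 and was lost without any other array (0.0677 to 0.184). With all probe sets tested LINC00161, LINC00339, MAP3K14-AS1 and NEXN-AS1 were lost too (0.054 to 0.0841), as were LINC00339 and NEXN-AS1 with the robust prior (0.0535 and 0.0553), LINC00339 with the replicate block (0.0504) and MAP3K14-AS1 without the variance trend (0.0537).

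The largest fall was that of GRIK1-AS2, an antisense gene of GRIK1, which encodes a kainate receptor subunit. Its log2 values were 0.52, -0.045 and 0.19 in the miR-34c arrays and 0.68, 1.30 and 1.25 in the scramble arrays. The arrays varied widely within both groups but did not overlap, with a log2 change of -0.85 (SE 0.19, n = 3 and 3, limma adjusted p = 0.0147), or 0.553-fold. Its call was lost without miR-34c replicate 2 or scramble replicates 2 or 3 (adjusted p = 0.0674, 0.0562 and 0.0598).

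SNHG17, a host gene whose introns hold small nucleolar RNAs of the SNORA71 group, had log2 values of 1.28, 1.06 and 1.07 in the miR-34c arrays and 1.73, 1.99 and 1.71 in the scramble arrays on probe set 8066254. All 3 miR-34c arrays lay below all scramble arrays, with a log2 change of -0.67 (SE 0.14, n = 3 and 3, limma adjusted p = 0.0122), or 0.628-fold. The other probe set paired with SNHG17 alone took no part in the reported test. Its values were -0.10, -0.15 and -0.027 in the miR-34c arrays and 0.20, 0.31 and 0.25 in the scramble arrays. There too the groups did not overlap (log2 change -0.35, SE 0.081, limma adjusted p over all probe sets 0.0305, a fit in which 10.3% of all probe sets passed). Without miR-34c replicate 2 or miR-34c replicate 3 the adjusted p of SNHG17 was 0.072 and 0.0625.

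SNHG29, the other host gene measured alone, had log2 values of -0.20, 0.011 and -0.011 in the miR-34c arrays and 0.15, 0.094 and 0.12 in the scramble arrays. The groups did not overlap but the gene did not pass (log2 change -0.19, SE 0.085, adjusted p = 0.168). Its other probe set gave a log2 change of -0.44 (SE 0.093, limma adjusted p over all probe sets 0.0208), and the mean of both probe sets a log2 change of -0.32 (adjusted p = 0.0202). MALAT1, an abundant nuclear RNA, had values of 1.47, 1.36 and 1.22 in the miR-34c arrays and 1.54, 1.38 and 1.18 in the scramble arrays. Its groups overlapped throughout, with a log2 change of -0.016 (SE 0.15, adjusted p = 0.956), and its other probe set gave 0.03 (adjusted p over all probe sets 0.93).

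The promoter window of SNHG17 (chr20:38435279-38435578, minus strand, GRCh38.p14) also holds 28 CG pairs, in capitals, and is shown beside that of LINC03122 (chr5:61637510-61637809, plus strand), a gene that fell and whose window holds none.
SNHG17: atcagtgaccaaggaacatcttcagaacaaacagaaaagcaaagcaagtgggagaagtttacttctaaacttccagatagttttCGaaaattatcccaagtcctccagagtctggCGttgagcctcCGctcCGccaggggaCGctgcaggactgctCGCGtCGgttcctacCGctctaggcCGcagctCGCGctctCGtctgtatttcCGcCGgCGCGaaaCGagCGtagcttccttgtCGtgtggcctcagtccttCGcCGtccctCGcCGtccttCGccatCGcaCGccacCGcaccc
LINC03122: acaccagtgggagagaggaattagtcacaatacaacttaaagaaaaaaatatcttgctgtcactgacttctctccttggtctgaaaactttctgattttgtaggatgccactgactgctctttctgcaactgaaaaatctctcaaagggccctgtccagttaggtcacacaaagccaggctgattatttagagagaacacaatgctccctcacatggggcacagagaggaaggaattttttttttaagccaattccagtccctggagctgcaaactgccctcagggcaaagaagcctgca
The median CG count was 22 over the 14 promoters found for 11 of the noncoding genes that rose. It was 9 over the 23 promoters found for 19 of those that fell. The median was 13 for the noncoding genes as a whole and 21 for all genes tested, and these differences were not tested.

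Among the LINC genes that fell, LINC00652 had log2 values of -0.68, -0.95 and -0.46 in the miR-34c arrays and -0.032, -0.083 and 0.032 in the scramble arrays. The miR-34c arrays were all well below the scramble arrays, with a log2 change of -0.67 (SE 0.12, n = 3 and 3, limma adjusted p = 0.00432), or 0.629-fold. LINC01940 had values of -0.44, -0.26 and -0.30 in the miR-34c arrays and 0.19, 0.13 and 0.46 in the scramble arrays, all below 0 with miR-34c and all above 0 with scramble, and fell to 0.663-fold (log2 change -0.59, SE 0.10, adjusted p = 0.00411). LINC00665 had values of 0.027, 0.19 and 0.19 in the miR-34c arrays and 0.59, 0.81 and 0.57 in the scramble arrays. Its groups were apart (log2 change -0.52, SE 0.11, adjusted p = 0.00911), as were those of LINC03122, with values of -0.28, -0.32 and -0.37 in the miR-34c arrays and 0.067, 0.041 and 0.16 in the scramble arrays (log2 change -0.41, SE 0.073, adjusted p = 0.00496). The 3 miR-34c arrays of LINC03122 lay within 0.1 log2 units of each other.

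LINC00310 (log2 change -0.53, SE 0.13, adjusted p = 0.0193) and LINC02210 (log2 change -0.51, SE 0.11, adjusted p = 0.015) fell by similar amounts. LINC02878 (log2 change -0.50, SE 0.11, adjusted p = 0.0167), LINC03129 (log2 change -0.47, SE 0.11, adjusted p = 0.0169), LINC00852 (log2 change -0.43, SE 0.10, adjusted p = 0.0206) and LINC01128 (log2 change -0.41, SE 0.11, adjusted p = 0.0287) completed the LINC genes among the 15 largest falls. The antisense genes GAS6-AS1, TSBP1-AS1 and SPART-AS1 were also among them. GAS6-AS1 had log2 values of -0.12, 0.035 and -0.033 in the miR-34c arrays and 0.28, 0.60 and 0.57 in the scramble arrays, with groups apart (log2 change -0.52, SE 0.11, adjusted p = 0.00969). TSBP1-AS1 (log2 change -0.57, SE 0.16, adjusted p = 0.0382) and SPART-AS1 (log2 change -0.51, SE 0.14, adjusted p = 0.0333) had the widest errors of the 3. The other 11 genes that fell, with log2 changes from -0.39 to -0.26, were LINC01446, LINC00417, LINC01951, LINC00305, LINC00200, LINC00839, TRIM67-AS1, ZNF606-AS1, BASP1-AS1, MCM3AP-AS1 and USP27X-DT.

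Of the 26 genes that fell, 5 passed whichever array was left out and under every other alternative: LINC00652, LINC01940, LINC00665, GAS6-AS1 and LINC03122. LINC00310 was lost without miR-34c replicate 2 (adjusted p = 0.0811), and LINC02210 without miR-34c replicate 3 (0.0661). LINC02878 was lost without miR-34c replicate 2 or scramble replicate 1 or 2 (0.0518 to 0.0766), and LINC03129 without miR-34c replicate 2 or 3 or scramble replicate 1 (0.0527 to 0.0683). LINC00852 was lost without miR-34c replicate 3 or scramble replicate 1 or 3 (0.0542 to 0.104). SPART-AS1 was lost without miR-34c replicate 2 or any 1 of the scramble replicates (0.0521 to 0.127). TSBP1-AS1 passed without miR-34c replicate 1 and was lost without any other array (0.0714 to 0.158). LINC01128 passed without scramble replicate 3 and was lost without any other array (0.0553 to 0.0999). After quantile normalization LINC00310, LINC00852 and SPART-AS1 were lost (0.105, 0.0558 and 0.0813). With all probe sets tested LINC00310, SPART-AS1 and TSBP1-AS1 were lost (0.0517, 0.0691 and 0.0801), and SPART-AS1 also with array weights (0.0519). The other 11 genes were each lost without at least 1 array, with a highest adjusted p between 0.0584 (ZNF606-AS1) and 0.17 (BASP1-AS1). Of these, BASP1-AS1, LINC00200, LINC00305, LINC00417, LINC00839, MCM3AP-AS1 and USP27X-DT were also lost with all probe sets tested and with the replicate block (0.0506 to 0.0798). BASP1-AS1, LINC00200 and USP27X-DT were lost with arrays centred and after quantile normalization too (0.0501 to 0.11). The robust prior lost BASP1-AS1, LINC00839 and USP27X-DT (0.0501 to 0.0526). LINC00200 passed in none of the fits that left out 1 array (adjusted p from 0.0602 to 0.138). All 39 genes had groups that did not overlap and kept the sign of their change under all 14 alternatives. They were selected on these same 6 arrays, so neither is independent support.

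**Figure D2:**
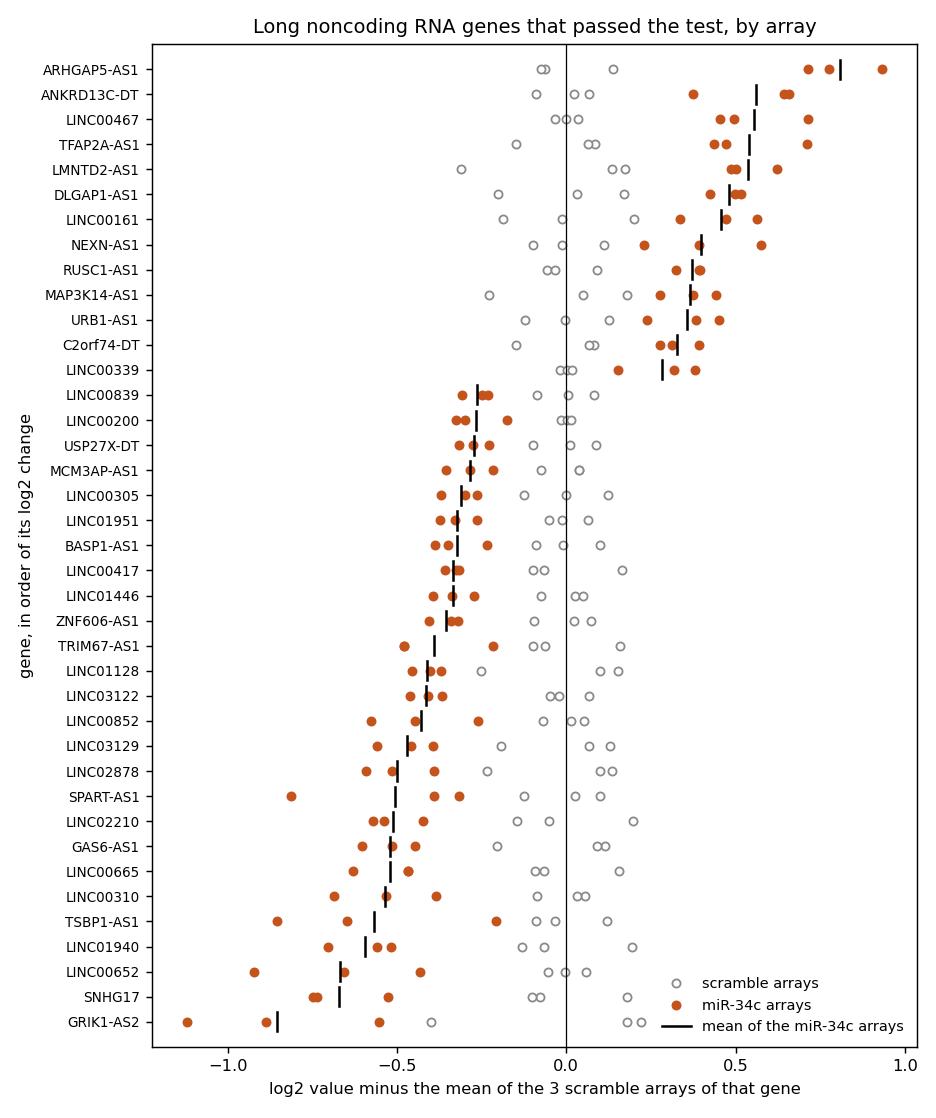
Log2 value in each array minus the mean of the 3 scramble arrays (horizontal axis) for the 39 long noncoding RNA genes that passed the test, in order of their log2 change; filled points are miR-34c arrays, open points scramble arrays and bars the miR-34c means. The groups overlap for none of the 39 genes, and the means run from -0.85 (GRIK1-AS2) to 0.81 (ARHGAP5-AS1).

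LINC00965, the gene with the most probe sets, was measured by 26, of which 13 had distinct values. Their log2 changes ran from -0.11 to 0.18, and the lowest adjusted p over all probe sets was 0.436. In all, 18 of the 431 genes had several probe sets, and SNHG17 and SNHG29 were the 2 among them with any probe set that passed.

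For 223 antisense, divergent and intronic genes the text before -AS, -DT or -IT1 was taken as the symbol of a partner. In 200 pairs a gene of that symbol was measured alone. Whether the partner codes for a protein was not checked, and HOXA, HOXB and KRTAP5 are among those that matched no measured gene. The 200 pairs held 197 distinct partner genes, of which 25 passed (12.7%, against 15.7% of all genes), 11 rising and 14 falling. Both members of a pair passed in 3 pairs, only the noncoding gene in 14, only the partner in 23 and neither in 160. The log2 changes had the same sign in 108 of 200 pairs (54.0%). Their correlation across pairs, which share the 6 arrays, was r = 0.20, and r = 0.16 over the 199 pairs without IL6-AS1 and IL6. The labels do not state which strand the probes read, so where a pair overlaps the signals of its genes cannot be told apart.

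The 3 pairs in which both genes passed moved in the same direction. TFAP2A had log2 values of 0.0015, -0.0015 and -0.047 in the miR-34c arrays and -0.36, -0.61 and -0.74 in the scramble arrays. Every miR-34c array lay above every scramble array (log2 change 0.55, SE 0.097, adjusted p = 0.00472), beside a log2 change of 0.54 for TFAP2A-AS1, and the starts of the 2 genes lie 73 bases apart with the transcripts overlapping. MAP3K14, the gene of the NF-kappaB-inducing kinase, rose (log2 change 0.42, SE 0.10, adjusted p = 0.0206) with MAP3K14-AS1, whose start lies 54940 bases away on the opposite strand; MAP3K14 did not pass without miR-34c replicate 2 or 3 (adjusted p = 0.122 and 0.0915). GRIK1 fell (log2 change -0.37, SE 0.10, adjusted p = 0.0389) with GRIK1-AS2, but passed without miR-34c replicate 1 and was lost without any other array (0.0543 to 0.151) and with the replicate block (0.0646).

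The remaining named noncoding genes changed without a change of the partner that passed. ARHGAP5 had log2 values of 0.11, 0.16 and 0.035 in the miR-34c arrays and 0.14, 0.13 and -0.018 in the scramble arrays. Its groups overlapped (log2 change 0.018, SE 0.084, adjusted p = 0.915), and the starts of ARHGAP5 and ARHGAP5-AS1 lie 605 bases apart. The change of ARHGAP5-AS1 exceeded that of ARHGAP5 by 0.79 log2 units, and the within-array difference did not overlap between the groups (two-sided exact permutation p = 0.1, the smallest that 3 against 3 arrays allow, and 0.323 after Benjamini-Hochberg adjustment over the 200 pairs). Such a difference is not particular to this pair. It did not overlap in 10 of the 17 measured pairs whose noncoding gene passed. Pairs in which neither gene passed, such as those of ACTA2-AS1 and ADAMTSL4-AS1, had the same exact permutation p. ANKRD13C (log2 change 0.12, SE 0.075, adjusted p = 0.342) starts 89 bases from ANKRD13C-DT, and RUSC1 (log2 change 0.19, SE 0.091, adjusted p = 0.209) starts 92 bases from RUSC1-AS1. GAS6, which encodes the ligand of the AXL receptor, had a log2 change of the opposite sign to that of GAS6-AS1 but did not pass (log2 change 0.29, SE 0.097, adjusted p = 0.0746); with arrays centred it did (log2 change 0.32, adjusted p = 0.0429). LMNTD2 had a change of the same sign as LMNTD2-AS1 and missed the threshold (log2 change 0.29, SE 0.09, adjusted p = 0.0534), which it passed with arrays centred (adjusted p = 0.0216) and without scramble replicate 2 (0.0179). RUSC1 passed without scramble replicate 2 (0.0474). NEXN, URB1, SPART and TSBP1 had log2 changes between -0.13 and -0.061 and did not pass, and DLGAP1 and C2orf74 had no probe set of their own.

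Of the 23 pairs in which only the partner passed, 4 were chosen for description after their values were seen. IL6, the gene of the cytokine interleukin 6, rose most of all partners, with values of 0.14, 0.20 and 0.34 in the miR-34c arrays and -1.19, -1.22 and -1.31 in the scramble arrays (log2 change 1.47, SE 0.086, adjusted p = 5.28e-06). IL6-AS1, which starts 420 bases from IL6 and overlaps it, had values of 0.36, -0.085 and 0.17 in the miR-34c arrays and -0.31, 0.085 and -0.44 in the scramble arrays. Its groups overlapped and it did not pass (log2 change 0.37, SE 0.15, adjusted p = 0.125), but it passed without scramble replicate 2 (log2 change 0.53, adjusted p = 0.0344). FOXN3, a forkhead factor, fell most (log2 change -0.83, SE 0.078, adjusted p = 0.000157), beside a log2 change of -0.0075 for FOXN3-AS2 (adjusted p = 0.982). ZNF22 fell (log2 change -0.66, SE 0.15, adjusted p = 0.0137), beside 0.035 for ZNF22-AS1 (adjusted p = 0.804); ZNF22 did not pass without miR-34c replicate 2 or scramble replicate 3 (0.0618 and 0.0524). DICER1, which encodes the enzyme that cuts microRNA precursors, fell (log2 change -0.52, SE 0.091, adjusted p = 0.00457), beside -0.15 for DICER1-AS1 (adjusted p = 0.317), whose start lies 159 bases away.

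**Figure D3:**
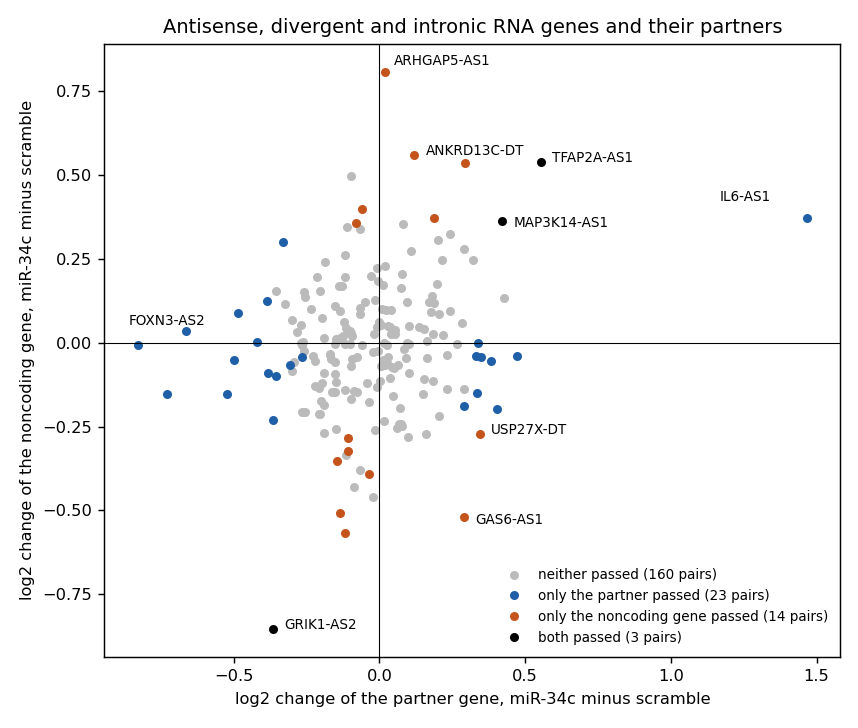
Log2 change of the noncoding gene (vertical axis) against that of its partner gene (horizontal axis), miR-34c minus scramble, for the 200 pairs measured; black points mark the 3 pairs in which both genes passed, orange the 14 with the noncoding gene alone, blue the 23 with the partner alone and grey the 160 with neither. IL6-AS1 lies far to the right (partner 1.47, noncoding gene 0.37), and ARHGAP5-AS1 lies at the top with a partner change of 0.02.

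The RefSeq table gave the arrangement of 136 of the 223 pairs. In 50 pairs the genes run head to head with starts within 1000 bases, and 8 of these noncoding genes passed. In 26 pairs the starts overlap, and 2 passed. Of the 56 on the opposite strand with starts farther apart 4 passed, and of the 4 on the same strand none did. In the 87 pairs without a known arrangement 5 passed. Beside these counts, 9.05% of the 431 noncoding genes and 15.7% of all genes passed. The shares were not tested against each other. The correlation of log2 changes was 0.07 over the 45 head-to-head pairs with a measured partner and 0.57 over the 25 with overlapping starts, which include the pairs of TFAP2A and IL6.

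For the 19 LINC genes that passed, the nearest coding gene was measured in 17 cases and passed in 2 (11.8%, against 15.7% of all genes). ZFP14, a zinc finger gene 2700 bases from LINC00665, fell (log2 change -0.42, SE 0.073, adjusted p = 0.00467), in the direction of LINC00665. ZNF33B, 78832 bases from LINC00839, also fell (log2 change -0.47, adjusted p = 0.0251), but passed without scramble replicate 2 or 3 and was lost without any other array (0.0511 to 0.0863). TRAF5, 7809 bases from LINC00467, had a log2 change of -0.22 (adjusted p = 0.178), and SCP2D1, nearest to LINC00652, one of 0.01 (adjusted p = 0.955). VKORC1L1, nearest to LINC03129, and PLEKHM1, nearest to LINC02210, had log2 changes of -0.39 and -0.30 and missed the threshold (adjusted p = 0.0534 and 0.0557). VKORC1L1 passed without scramble replicate 1 (0.0436) and with the replicate block (0.0331), and PLEKHM1 without scramble replicate 3 (0.0268). GHRL, which overlaps LINC00852, had a log2 change of -0.047 (adjusted p = 0.843). HEMK2, CELA3A, SAMD11, ZNF707 and ZSWIM6, nearest to LINC00161, LINC00339, LINC01128, LINC02878 and LINC03122, had changes between -0.19 and 0.25 that did not pass; ZSWIM6 passed without scramble replicate 2 (log2 change 0.35, adjusted p = 0.0214).

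Small nucleolar RNAs are cut from the introns of host genes and guide the modification of other RNAs, so a host transcript and its intronic products come from 1 primary RNA. Of 43 listed small nucleolar RNAs of SNHG and GAS5 hosts, 19 were measured alone; 4 rose (21.1%, against 7.67% of all genes) and 1 fell (5.26%, against 8.01%), around a median log2 change of 0.21 (all genes, -0.03). This list was drawn up with earlier results of these data known. SNORD75, hosted by GAS5, rose (log2 change 1.35, adjusted p = 0.00821), and so did SNORD50B (log2 change 1.51, adjusted p = 0.00271) and SNORD50A (log2 change 1.04, adjusted p = 0.00154), both hosted by SNHG5, and SNORD30 of SNHG1 (log2 change 0.58, adjusted p = 0.0476). SNORD30 passed without miR-34c replicate 1 and was lost without any other array (0.0571 to 0.2) and with the replicate block (0.0889). SNORD1A of SNHG16 fell (log2 change -0.78, adjusted p = 0.0125), though not after quantile normalization (adjusted p = 0.0543). Others of the same hosts did not pass: SNORD44, SNORD74, SNORD77, SNORD78, SNORD79 and SNORD81 of GAS5 (log2 change 0.14 to 0.62, limma adjusted p from 0.0749 to 0.593). Neither did SNORD28 of SNHG1 (log2 change 0.51, adjusted p = 0.101) or SNORD1B of SNHG16 (log2 change -0.44, adjusted p = 0.0947). The 3 probe sets that GAS5 shares with other genes did not pass either (log2 change 0.048 to 0.23). Of SNHG17's own small nucleolar RNAs, SNORA71A (log2 change 7e-05, adjusted p = 0.9998), SNORA71C (log2 change -0.17, adjusted p = 0.477) and SNORA71D (log2 change -0.023, adjusted p = 0.927) did not pass, while SNHG17 fell. A probe set paired with both SNHG17 and SNORA71B did not pass (log2 change 0.030, limma adjusted p over all probe sets 0.92). The GAS5, SNHG1, SNHG5 and SNHG16 hosts were not measured alone, so their own change cannot be set beside the values of their small nucleolar RNAs.

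Promoters were found for 30 of the 39 genes that passed. Of these 30 genes, 4 have a promoter with GAAA, any 2 bases and GAAA again on either strand, the core of the element bound by interferon-activated factors. TFAP2A-AS1 and MAP3K14-AS1 rose, and GRIK1-AS2 and LINC00310 fell. The letters occur in 3.57% of all promoters of the table, in 3.10% of those of all genes tested, in 3.93% of the 356 promoters of the noncoding genes and in 10.8% of the 37 promoters of those that passed (4 promoters). The letters TATAAA, searched on both strands as well, occur in 11.5%, 9.03%, 10.1% and 13.5%. A match describes the sequence and not a bound site. The 4 windows, with the match to this core in capitals (either strand), are those of TFAP2A-AS1 (chr6:10412068-10412367, plus strand), the downstream start of MAP3K14-AS1 (chr17:45261830-45262129, plus strand), GRIK1-AS2 (chr21:29595790-29596089, plus strand) and LINC00310 (chr21:34180427-34180726, plus strand), all in GRCh38.p14.
TFAP2A-AS1: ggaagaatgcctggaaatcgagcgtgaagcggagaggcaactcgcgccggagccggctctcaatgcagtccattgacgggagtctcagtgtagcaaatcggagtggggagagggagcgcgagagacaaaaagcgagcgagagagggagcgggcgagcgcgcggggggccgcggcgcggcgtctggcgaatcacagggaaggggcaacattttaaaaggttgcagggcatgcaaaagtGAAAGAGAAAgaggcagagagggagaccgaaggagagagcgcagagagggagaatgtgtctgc
MAP3K14-AS1: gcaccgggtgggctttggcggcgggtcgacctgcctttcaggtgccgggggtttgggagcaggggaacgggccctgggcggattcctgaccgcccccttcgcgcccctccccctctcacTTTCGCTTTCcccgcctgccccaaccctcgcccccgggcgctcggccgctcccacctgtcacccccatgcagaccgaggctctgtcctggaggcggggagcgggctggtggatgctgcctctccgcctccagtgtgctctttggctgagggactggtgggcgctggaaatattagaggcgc
GRIK1-AS2: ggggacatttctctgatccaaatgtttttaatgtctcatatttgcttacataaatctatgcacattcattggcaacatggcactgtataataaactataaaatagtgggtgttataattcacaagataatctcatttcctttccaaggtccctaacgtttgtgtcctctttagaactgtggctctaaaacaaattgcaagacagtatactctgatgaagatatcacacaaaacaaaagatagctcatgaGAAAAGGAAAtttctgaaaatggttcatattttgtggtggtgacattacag
LINC00310: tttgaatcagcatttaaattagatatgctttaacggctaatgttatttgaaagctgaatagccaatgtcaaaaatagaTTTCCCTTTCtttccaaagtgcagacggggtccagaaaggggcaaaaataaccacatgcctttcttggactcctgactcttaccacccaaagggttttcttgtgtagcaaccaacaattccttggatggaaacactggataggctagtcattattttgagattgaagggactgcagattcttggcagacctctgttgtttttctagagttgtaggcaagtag
The TFAP2A-AS1 and MAP3K14-AS1 windows hold 26 and 23 CG pairs, and the GRIK1-AS2 and LINC00310 windows 1 and 2.

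The share of noncoding genes that passed was recomputed under 14 alternatives. It ran from 3.94% to 12.3%, while the share of all genes ran from 9.01% to 19.1%, and the noncoding share was the lower of the 2 in 14 of 14. Without miR-34c replicate 2, 8 noncoding genes rose and 9 fell, and without miR-34c replicate 3, 7 rose and 11 fell. Without scramble replicate 1, 8 rose and 17 fell.

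**Figure D4:**
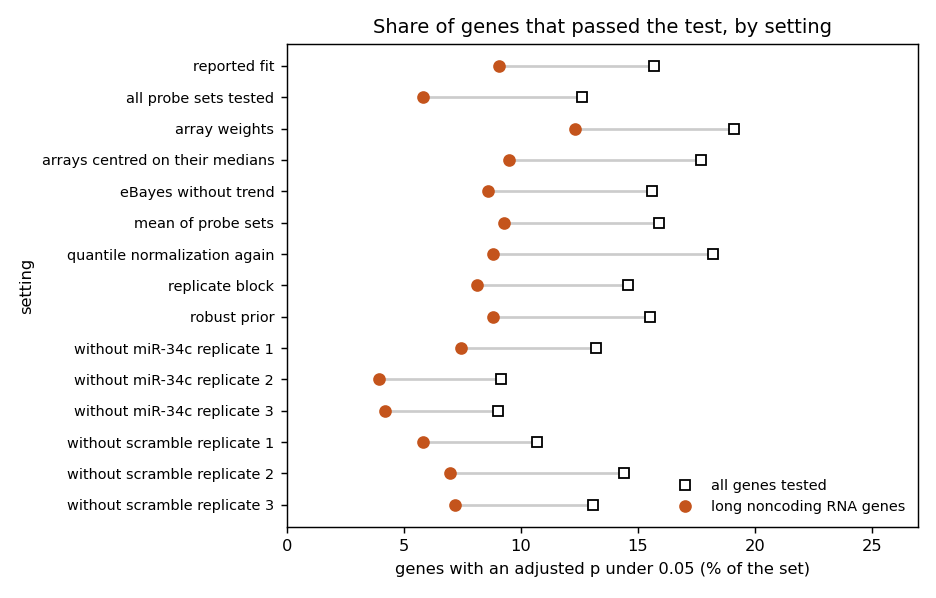
Share of genes with a limma adjusted p under 0.05 (horizontal axis, percent) in the reported fit and each of 14 alternatives (vertical axis); filled circles are the long noncoding RNA genes and open squares all genes tested. The circle lies to the left of the square in every line, at 9.05% against 15.7% in the reported fit.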

How the data were processed

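RNA of 6 PC3 samples, 3 with miR-34c and 3 with scramble, was hybridised to 1-colour Affymetrix arrays, grouped by the sample labels. The authors deposited log2 values made by RMA in Affymetrix Expression Console, per the submitters' processing notes; the version and the genome build are not given in the sources used here. The values are centred per probe set on a reference that is not described, so brightness is unknown, background correction and a filter on dim probe sets could not be varied, and the number of arrays limits the precision. Arrays were taken as normalized.

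Of 28868 probe sets, 19309 have 1 symbol in the platform annotation, 1752 several and 7807 none; 19278 were found in RefSeq by Entrez ID, and 0 symbols changed. For the 685 genes with several probe sets the one with the highest mean was tested. The symbols of 33 further genes that meet the rule, GAS5, H19, SNHG1 and SNHG12 among them, stand only on probe sets paired with several genes, and NEAT1 and DANCR are not analysed here.

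Differences (miR-34c minus scramble) were tested with limma 3.58.1 in R 4.3.3 (lmFit, eBayes with trend) over 18376 genes, and genes passed at a Benjamini-Hochberg adjusted p under 0.05; adjusted p-values over all probe sets are named as such and 10.3% of probe sets passed there. The fit was tested on simulated data. Named genes were the 15 largest changes in each direction among genes that passed with groups that did not overlap, MALAT1, the host genes measured, their partners, nearest coding genes and hosted small nucleolar RNAs; other names were picked later, with values in view, or only complete a count. Partner arrangement (starts within 1000 bases) and promoters came from RefSeq (GRCh38.p14); the arrangement, CG counts and TATAAA were added after values were seen. The members and lists were chosen with earlier results of these data known. Alternatives were a replicate block, other variance priors, array weights, centring, quantile normalization, the mean of probe sets, all probe sets, and leaving out each array.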

Additional observations from a re-analysis of the deposited data

Results flagged for a closer look

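Probe sets paired with several genes took no part in the comparisons. Of the 82 that carry a symbol of the noncoding gene set, 3 rose and 6 fell (limma, adjusted over all probe sets, of which 10.3% passed). Some of the 82 hold identical values, such as those paired with SNHG32 and SVIL, so they are not all separate measurements. The 3 that rose are given because their signal lay above that of the scramble arrays outside the genes tested: the probe set paired with SNHG12, SNORA16A, SNORA61 and SNORA44 (log2 change 0.66, adjusted p = 0.0164), the one paired with SNHG1 and SNORD31 (log2 change 0.77, adjusted p = 0.0417) and the one paired with MIF and MIF-AS1 (log2 change 0.37, adjusted p = 0.0373). Of the 4 probe sets paired with SNHG12, the others did not pass (log2 change -0.079 to 0.35, adjusted p from 0.256 to 0.757). Neither did the others of the 6 paired with SNHG1 (log2 change 0.11 to 0.45, adjusted p from 0.179 to 0.695). Among the 6 that fell were 2 of the probe sets paired with LINC01123 and LINC01106 (log2 change -0.43 and -0.45, adjusted p = 0.00521 and 0.00527). Another was paired with LLPH and LLPH-DT (-0.58, adjusted p = 0.00576), and another with RCC1 and SNHG3 (-0.34, adjusted p = 0.0436). The last 2 were paired with LINC00680-GUSBP4 and other GUSBP genes (-0.40 and -0.41, adjusted p = 0.0477 and 0.0425). These 2 had nearly the same values in every array and may not be separate measurements. A further probe set of LINC01123 and LINC01106 (-0.32, adjusted p = 0.236) and another of LLPH and LLPH-DT (-0.54, adjusted p = 0.0673) did not pass. Other probe sets paired with LINC00680-GUSBP4 did not pass either. Which of the paired genes gave the signal cannot be told apart.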

How the results depend on the processing

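The 39 genes that passed kept the sign of their change under all 14 alternatives. They were selected on the same 6 arrays that the alternatives fit again, so this is no independent support. Among the 392 genes that did not pass, 177 changed sign under at least 1 alternative and 215 did not. The median log2 change of the noncoding genes, -0.04, was 0.0031 after quantile normalization. The count of noncoding genes that rose, 13, ran from 7 to 12 when 1 array was left out and from 9 to 20 otherwise; it was 20 with array weights. The count that fell, 26, ran from 9 to 23 without 1 array and from 16 to 33 otherwise; it was 16 when all probe sets were tested. The count of pairs in which both genes passed, 3, ran from 1 to 5 without 1 array; it was 1 with all probe sets tested, 6 with array weights, 6 with arrays centred and 5 after quantile normalization. Of the 39 calls, 17 were kept without miR-34c replicate 2, 17 without miR-34c replicate 3 and 25 with all probe sets tested. With the replicate number as a block, 14 rose and 21 fell, and 31 of the 39 calls were kept. The labels do not state whether same-numbered arrays belong together. The deviations of same-numbered arrays from their group means correlated at -0.0051, 0.12 and -0.085, and those of differently numbered arrays at -0.16 to 0.17. Deviations from a mean of 3 arrays cannot show whether the numbers pair the arrays, so the block is only an alternative. Of the named genes under all alternatives, noncoding genes missed the threshold in 75 fits, passed anew in 1 and kept their call in 344. Depth has no counterpart in centred array values: noncoding genes with low signal could not be set aside. The cause of the changes in counts was not tested.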

Other observations

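By chromosome, the counts of noncoding genes that passed were small. On chromosome 21, 5 of 25 passed (20.0%, against 17.0% of all genes there): LINC00161 and URB1-AS1 rose, and GRIK1-AS2, LINC00310 and MCM3AP-AS1 fell. On chromosome 13, 3 of 8 passed (37.5%, against 16.8%), all of them falling: GAS6-AS1, SPART-AS1 and LINC00417. On chromosome 1, 7 of 42 passed (16.7%, against 17.3%), and on chromosomes 12, 15, 16, 22, 4 and 9 none of 18, 10, 12, 15, 15 and 19 passed (limma). These chromosomes were singled out after their counts were seen, and the shares were not tested.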
